A study of Mus musculus with 3 samples.

Results

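The 10 genes described here are targets of the transcription factor ATF4 in amino acid supply and stress signalling: Asns, Psat1, Phgdh, Chac1, Trib3, Sesn2, Ddit4, Slc7a11, Slc7a5 and Slc3a2. They were chosen by name, and all 10 were found among 20808 genes that had a 5′ UTR, a coding sequence (CDS) and a 3′ UTR in the tables. Values are for the longest transcript of each gene. The data are ribosome footprints, stretches of mRNA shielded from nuclease by a ribosome, from primary cortical neurons of mouse, which the study took from the cortex of CD-1 embryos. Neurons labelled WT received no drug, so that WT names a treatment and not a genotype. The neurons labelled Chx were exposed for 2 min to cycloheximide, a drug that stops elongation. Those labelled Harr were exposed for 2 min to harringtonine, followed by a short cycloheximide pulse. Harringtonine traps ribosomes at start codons and lets elongating ones finish. For each treatment 3 dishes were pooled into 1 library. Cycloheximide (100 μg per ml) was also present in the rinse and the lysis buffer of every library, WT included. None of the treatments is labelled as an amino acid or stress treatment. With 1 library per treatment no difference has a replicate check, and all intervals cover counting error only.

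ATF4 is the effector of the integrated stress response. When kinases phosphorylate the initiation factor eIF2α, most initiation is lowered, whereas ribosomes pass the inhibitory upstream open reading frames (uORFs) of the Atf4 mRNA more often and make ATF4. ATF4 then binds CCAAT-enhancer binding protein–ATF response elements (CAREs) and drives genes that make, import and spare amino acids. In neurons the same programme responds to amino acid shortage, misfolded protein and mitochondrial stress.

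The start codons of these genes are shown because every read was counted at its 5′ end, which puts the footprint of a ribosome waiting on the start codon into the 5′ UTR. The tables give no position within a segment. The capitals mark the ATG. The windows are from GENCODE M21 transcripts, and all lie on the minus strand of mm10.
Asns, chr6:7689489-7689509: gcctgtagcATGtgtggcatc
Psat1, chr19:15924912-15924932: cttagcaccATGgaagccacc
Ddit4, chr10:59951501-59951521: gaccccgccATGcctagcctc
Slc7a5, chr8:121907595-121907615: gccgagagcATGgcggtcgcg
Slc3a2, longest transcript, chr19:8723084-8723104: tccatctctATGgatcctgaa
Slc3a2, shorter transcript, chr19:8713736-8713756: gcaggcaccATGagccaggac
A purine stood at position −3, counted from the A of the ATG, in 9 of the 10 genes (84.1% of 20663 genes), the exception being the T of the longest Slc3a2 transcript. A G at position +4 followed the ATG in 5 of the 10 (49.2% of all genes). The shorter Slc3a2 transcript starts in another exon and has A at both positions.

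An ATG upstream of the start codon was present in the 5′ UTR of 4 of the 10 genes, compared with 55.4% of all genes. The 5′ UTRs were 88 to 350 nucleotides (nt) long, with a median of 180 nt against 177 nt over all genes. The upstream ATGs are printed because their reading frames are the candidate uORFs of these mRNAs. In the lines below, the capitals mark the upstream ATG, and all lie on the minus strand.
Sesn2, chr4:132510442-132510462: gtggtggggATGgtgaggagc
Slc7a11, chr3:50443562-50443582: tggtgtgtaATGatagggcag
Psat1, chr19:15925022-15925042: agcgaaccaATGgagcgccga
Asns, first exon of a shorter transcript, chr6:7693222-7693242: cccagccacATGatgaaactt
The Sesn2 ATG lies 300 nt before the start codon and opens a frame of 22 codons that ends 231 nt before it. The Slc7a11 ATG lies 312 nt before the start codon, with a frame of 35 codons. The Psat1 ATG lies 110 nt before the start codon, and its frame of 66 codons is out of frame with Psat1 and ends 91 nt inside the CDS. The longest Asns transcript has an upstream ATG 118 nt before the start codon, in its first exon. In the shorter Asns transcript 2 ATGs follow each other, 148 and 145 nt before the start codon, with frames of 14 and 13 codons that share a stop. None was found in the longest transcripts of Chac1, Trib3, Phgdh, Slc7a5, Ddit4 or Slc3a2. The tables hold 1 count per exon segment, so that reads on a single upstream frame cannot be separated from others in the same segment.

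The CARE core was searched as TGATGNAAN on both strands of RefSeq promoters, from 250 bases before to 50 after the annotated start (build GRCm38.p6). Of the 9 genes with a promoter entry 4 held it, compared with 4.50% of 27025 genes. The windows show the core in capitals.
Asns, chr6:7693215-7693241, minus strand: ccagccacaTGATGAAACttcccgcac
Chac1, chr2:119351039-119351065, minus strand: tggcaggagTGATGCAACggcagggaa
Trib3, chr2:152344030-152344056, plus strand: ccgcccggcTGATGTAAAcctgagcta
Slc7a11, chr3:50443662-50443688, minus strand: tcatgtggcTGATGCAAAcctggagaa
Slc7a11, chr3:50443644-50443670, plus strand: gctgcatgaTGATGCAAAttctccagg
The Asns core, 23 bases before the RefSeq start, lies inside the first exon that GENCODE gives for the shorter Asns transcript. It overlaps the ATG pair printed above. A match is a description of letters only, and no factor binding was measured here.

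The libraries held 30219197 (WT), 35722483 (Chx) and 9754412 (Harr) aligned reads, and the floor of 3 counts corresponded to 0.0993, 0.0840 and 0.308 reads per 1000000. The 8 neuronal markers had 4391 to 6762 CDS reads per 1000000, the 4 astrocyte markers 78.8 to 213 and the 4 radial glia and progenitor markers 263 to 348. The 4 oligodendrocyte markers had 2.15 to 6.52, with Mog and Mobp at 0 in every library, and the 4 microglia markers 1.44 to 2.80. The 4 stromal and endothelial markers had 9.94 to 13.2. The neuronal label was thus borne out by its markers. The glial reads were uneven, with 3809 in the WT CDS for Slc1a3 and 68 for Gfap, and 7022 for Fabp7 and 58 for Pax6. The paper reported cultures free of contaminating non-neuronal cell types. The source of the glial reads and their part in the values below were not tested. All 6 marker lists were lowest in Harr, where the CDS reads of all genes were also fewest per 1000000 reads.

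The 10 genes together drew 39142 region reads in WT, 57312 in Chx and 14470 in Harr. Their CDS took 0.225% of all CDS reads in WT, 0.267% in Chx and 0.273% in Harr. The 5′ UTR held 3.72% of their reads in WT (Wilson 95% interval 3.54 to 3.92), 5.71% in Chx (5.53 to 5.91) and 26.4% in Harr (25.7 to 27.1). Over all genes these shares were 6.14%, 8.71% and 33.5%. The pooled share of the 10 genes was below that of all genes in each library, but it is weighted to Slc3a2 and Asns, which had the most reads. Of the single genes, 3 of 10 exceeded the all-gene share in WT (Sesn2, Ddit4 and Slc7a11), 4 in Chx (also Trib3) and 5 in Harr (also Phgdh). With the most read transcript of each of the 10 genes the pooled shares were 4.89%, 8.87% and 37.7%, so that in Chx and Harr they lay above the all-gene shares, which were computed on longest transcripts.

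Levels between genes are given in reads per kilobase per 1000000 reads (RPKM), which corrects for length. CDS density spanned about 2 orders of magnitude in WT, from 2.14 RPKM for Trib3 to 263 RPKM for Slc3a2. The order in WT was Slc3a2, Asns, Ddit4, Psat1, Slc7a5, Chac1, Sesn2, Phgdh, Slc7a11 and Trib3. Of neighbours in this order, only the counting intervals of Slc7a11 and Trib3 overlapped. In Chx, Slc7a5 passed Psat1 and could not be separated from Ddit4. In Harr, neither Slc7a5 and Ddit4 nor Chac1 and Sesn2 were separated, nor were Slc7a11, Phgdh and Trib3. Slc3a2 and Asns ranked above the other 8 in all 3 libraries. RNA was not measured alongside, so that more mRNA and more ribosomes per mRNA cannot be told apart. If the culture was mixed, neither can more cells of a type and more RNA per cell.

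**Figure D1:**
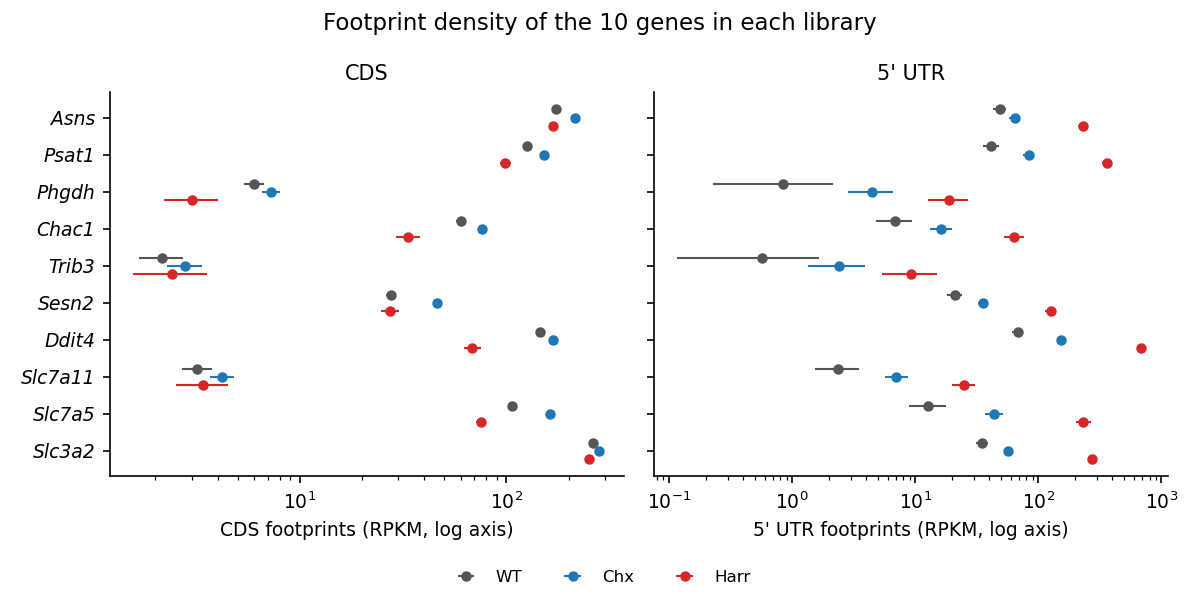
Density of footprints in the CDS (left) and the 5′ UTR (right) of the 10 genes in the WT, Chx and Harr libraries, in RPKM on a log axis, with 95% counting intervals. CDS densities are highest in Chx for each gene, with intervals that overlap another library for Trib3, Slc7a11 and Phgdh, while 5′ UTR densities are in the order WT, Chx, Harr for each gene.

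The enzymes of amino acid synthesis stood at very different levels. Asns, which makes asparagine from aspartate and glutamine, had 8822 CDS reads in WT, 12875 in Chx and 2754 in Harr. These counts corresponded to 173, 214 and 167 RPKM, at or above the 97.1 percentile of all genes in each library. Its 5′ UTR held 270, 422 and 413 reads, so that Harr had nearly as many 5′ UTR reads as Chx in a library with far fewer reads. Psat1, the transaminase of serine synthesis, had 4227, 6042 and 1074 CDS reads. Its 5′ UTR counts were 171, 404 and 481, the highest of them in the shallowest library.

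Phgdh, which catalyses the first step of serine synthesis, stood far below Psat1, the next enzyme of the same route. It had 291 CDS reads in WT, 416 in Chx and 47 in Harr, or 6.01, 7.27 and 3.01 RPKM, and 4, 25 and 29 reads in the 5′ UTR. Its counts are uncertain. Of the 25-nt words of the Phgdh CDS, 89.5% also occur in transcripts of other genes, 24 in number and mostly predicted genes, compared with 13.2% for Psat1 and at most 0.390% for the other 8 genes. The CDS segments of Phgdh were filled unevenly. Segment 4 of 12 held no read in any library and segment 2 held 0, 7 and 0, and all words of both are shared. Segment 11, with the lowest share of shared words (62.6%), held 116, 166 and 31 reads, more than any other. How the alignment treated reads with several matches was not tested.

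The stress regulators differed widely in level. Ddit4, an inhibitor of mTORC1 signalling also known as REDD1, had 3020, 4150 and 461 CDS reads in WT, Chx and Harr. It had 406, 1079 and 1326 reads in the 5′ UTR, and in Harr the 5′ UTR held 72.8% of its reads, the highest share of the 10 genes. Sesn2, a leucine sensor that restrains mTORC1, had 1203, 2389 and 384 CDS reads. Its 5′ UTR held 220, 445 and 426 reads, and in WT the density of its 5′ UTR was 0.758 times that of its CDS. This was the highest ratio among the 10 genes in that library, but close to that of Slc7a11 (0.743, on 25 reads in the 5′ UTR).

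Chac1, which degrades glutathione, had 1229, 1822 and 220 CDS reads and 36, 101 and 108 reads in the 5′ UTR. Trib3, a pseudokinase that feeds back on ATF4 and CHOP, had 69, 106 and 25 CDS reads and 3, 15 and 16 in the 5′ UTR. Trib3 was the least read of the 10 genes in each library. Its WT 5′ UTR count was at the floor.

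The 3 transporter genes differed widely in level. Slc3a2 encodes the heavy chain CD98 that carries the light chains Slc7a5 (LAT1, a carrier of large neutral amino acids) and Slc7a11 (xCT, the cystine–glutamate exchanger) to the membrane. Slc3a2 had 13491, 16983 and 4168 CDS reads in WT, Chx and Harr, and 289, 559 and 732 in the 5′ UTR. Slc7a5 had 4967, 8904 and 1129 CDS reads and 34, 137 and 199 in the 5′ UTR. Slc7a11 had only 145, 227 and 50 CDS reads and 25, 88 and 85 in the 5′ UTR. The light chain Slc7a5 thus lay at 107 RPKM in WT and Slc7a11 at 3.18 RPKM.

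To ask where each drug placed ribosomes, the 5′ UTR:CDS ratio was compared between libraries as a log2 odds ratio, with 0.5 added to each count. In Harr against Chx it was above 0 for all 10 genes (98.6% of all genes), from 2.12 (Slc7a11) to 3.52 (Slc7a5), and the counting interval excluded 0 for each. All 10 exceeded 1 on the log2 scale, as did 92.1% of 10722 genes, so that the count is near the background. The median of the 10 genes was 2.66, against 2.46 over all genes with quartiles of 1.77 and 3.22. Slc7a5 was 11.4-fold higher (log2 3.52, 3.19 to 3.84) and Ddit4 11.1-fold (3.47, 3.29 to 3.65). Both lay above the upper quartile, as did Phgdh (3.34, 2.46 to 4.22), and of these 3 genes only Ddit4 had an interval that excluded it. At the other end were Slc7a11 at 2.12 (1.51 to 2.74), Trib3 at 2.15 (0.97 to 3.33) and Asns at 2.19 (1.99 to 2.40). The intervals of Slc7a5 and Asns did not overlap, so the spread between these 2 genes exceeded counting error.

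The same ratio in Harr against WT ranged from 2.29 (Asns) to 5.33 (Phgdh), with a median of 3.57 against 3.23 over all genes. All 10 exceeded 1, as did 96% of 10313 genes. The Phgdh value rests on 4 reads in WT and has an interval of 3.83 to 6.83. The comparisons share libraries, and their values are therefore not separate evidence.

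Between Chx and WT the ratio was above 0 in 10 of 10 genes (80.7% of 10429 genes) and at least 1 in 4 of 10 (34.7%), namely Phgdh, Trib3, Slc7a5 and Slc7a11. With the most read transcript of each gene the count was 6, as Asns and Slc3a2 passed 1. With a pseudocount of 5 Trib3 fell below 1, and a minimum of 20 reads left it out. The values of the first 4 were 1.99 (0.53 to 3.45), 1.53 (−0.20 to 3.26), 1.15 (0.61 to 1.69) and 1.15 (0.45 to 1.85). The median was 0.93, against 0.67 over all genes. The lowest values belonged to Sesn2, at 0.03 (−0.23 to 0.28), and Asns, at 0.10 (−0.13 to 0.32), whose ratios in Chx could not be told from WT. Sesn2 had 15.0% of its reads in the 5′ UTR in WT and 15.6% in Chx, and Asns 2.96% and 3.17%. In both genes the interval lay below the all-gene median of 0.67.

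**Figure D2:**
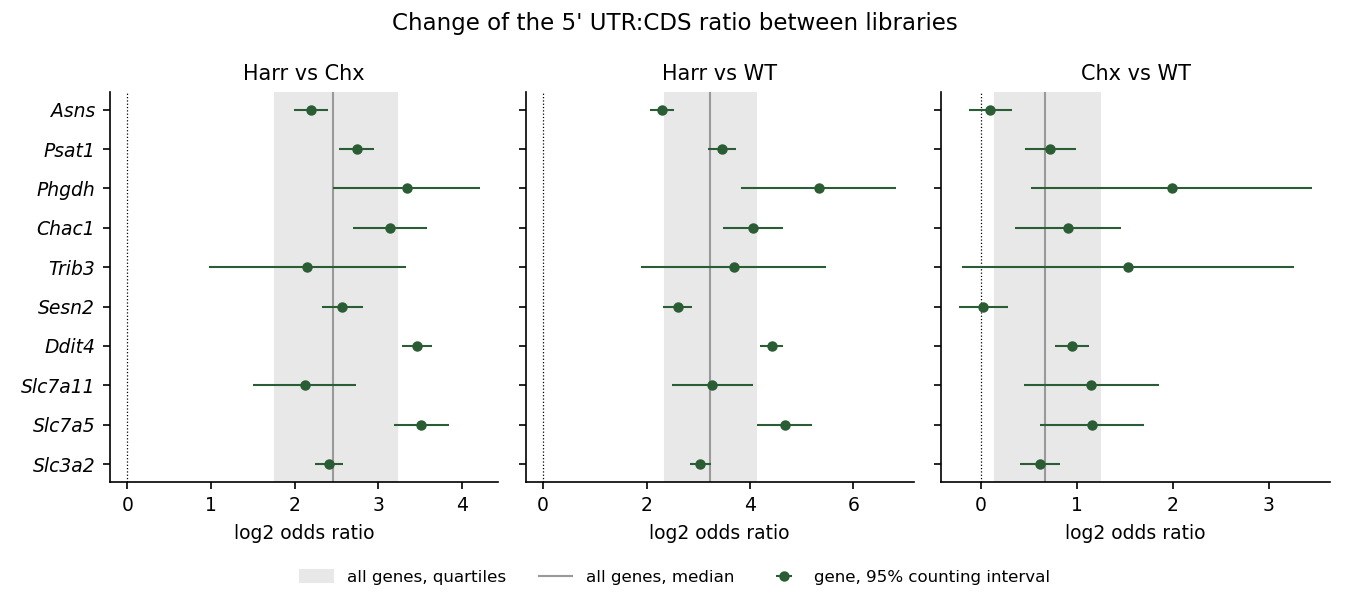
Change of the 5′ UTR:CDS ratio (log2) for each of the 10 genes in the 3 pairs of libraries (points, with 95% counting intervals), beside the median (line) and quartiles (band) of all genes tested. All 10 genes lie above 2 in Harr vs Chx, and Asns and Sesn2 sit near 0 in Chx vs WT.

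Asns and Slc3a2 depended on the transcript used. In the longest Asns transcript the 5′ UTR is made of an exon of 161 nt (chr6:7692711-7692871) and a segment of 23 nt that ends at the start codon (chr6:7689501-7689523). Nearly all reads lay in the short segment, with 270 in WT, 421 in Chx and 407 in Harr, against 0, 1 and 6 in the exon of 161 nt. A first exon of 146 nt that belongs to a shorter Asns transcript (chr6:7693109-7693254) held 236, 1126 and 1317 reads. This exon carries the upstream ATG pair and the CARE core printed above. Measured against the Asns CDS, the log2 odds ratio of Chx against WT was 1.71 for this exon and 0.09 for the start segment. In Harr against Chx, the exon and the start segment were higher by 2.45 and 2.18. With the most read transcript of each gene, the value of Asns went from 0.10 to 1.07 in Chx against WT and from 2.29 to 3.45 in Harr against WT, so that Asns was no longer the lowest of the 10 genes there.

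Slc3a2 had a similar split. The 5′ UTR of its longest transcript (274 nt, chr19:8723096-8723369) held 289, 559 and 732 reads. That of the shorter transcript (132 nt, chr19:8713748-8713879) held 503, 1362 and 1933, in a shorter region. Its last 5 nt are also part of the CDS of the longest transcript and took 172, 137 and 94 of these reads. Per nucleotide and relative to the CDS of its own transcript, the shorter 5′ UTR stood at 0.467 in WT, 0.995 in Chx and 5.85 in Harr, against 0.133, 0.204 and 1.09 for the longest. The CDS does not separate the transcripts. Its first segment, which the shorter transcript lacks, had 3.66 reads per nt in WT, and the next segment, with the downstream ATG, had 11.4. But segments 5 and 6 of 10, downstream of both starts, had 1.74 and 2.92, below the first. With the shorter transcript, the 5′ UTR:CDS value of Slc3a2 went from 0.62 to 1.09 in Chx against WT and from 3.03 to 3.65 in Harr against WT. The 5′ UTR next to the downstream start thus held more reads than that next to the upstream start in each library.

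Ddit4 is the other gene whose longest transcript has a 5′ UTR exon upstream of the start segment (138 nt, chr10:59951697-59951834). It held 62 reads in WT, 350 in Chx and 294 in Harr, and the start segment of 60 nt held 344, 729 and 1032. Relative to the Ddit4 CDS, the density of the upstream exon was 0.103, 0.422 and 3.19, and that of the start segment 1.31, 2.02 and 25.7. Between Chx and WT the log2 odds ratio was 2.03 for the upstream exon and 0.62 for the start segment. The exon has no ATG, and the data do not show on which codons these ribosomes lay.

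**Figure D3:**
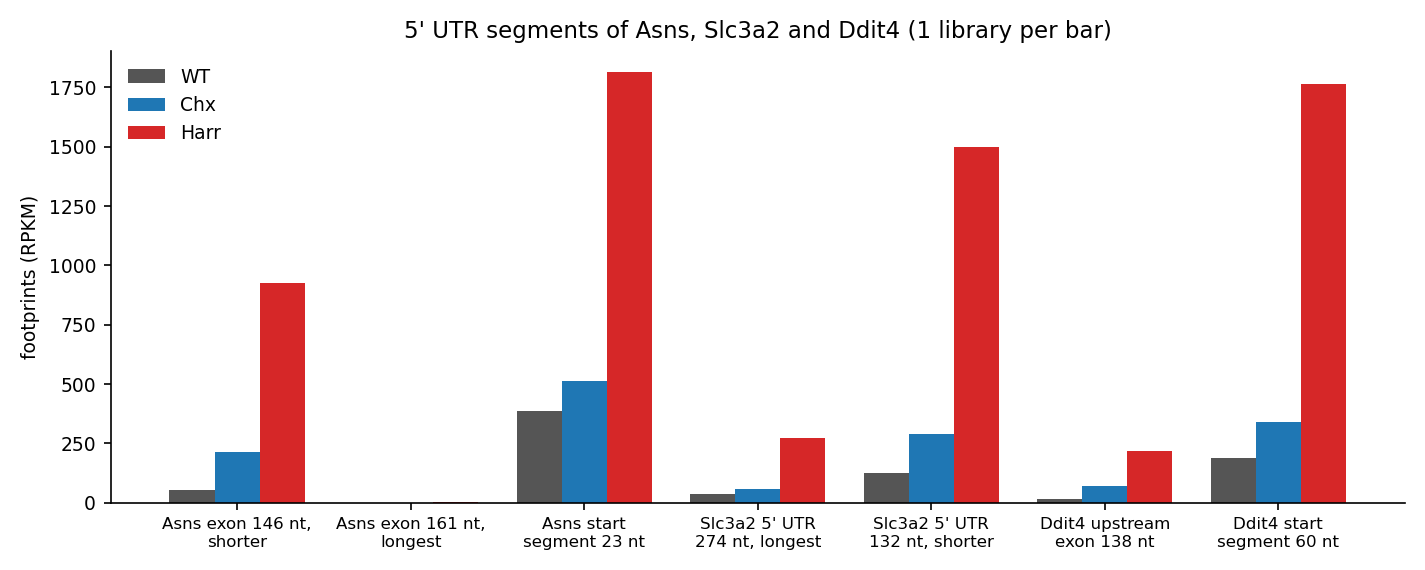
Footprint density in RPKM, 1 bar per library, in 5′ UTR segments of Asns, Slc3a2 and Ddit4, from the longest or from a shorter transcript. The Asns exon of 146 nt holds reads where the exon of 161 nt of the longest transcript is nearly empty, and the Slc3a2 5′ UTR of 132 nt is denser than that of 274 nt in each library.

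CDS footprints were then compared between libraries as a log2 ratio, after each library was scaled to its total of CDS reads. In Chx against WT all 10 genes were above 0 (54.8% of 11459 genes), 9 of them with an interval that excluded 0 and Trib3 the exception. The median was 0.28, against 0.03 over all genes with an upper quartile of 0.20. Sesn2 was the highest at 0.71 (0.61 to 0.81), or 1.64-fold, at the 99.0 percentile of all genes, and Slc7a5 followed at 0.56 (0.51 to 0.61), or 1.48-fold. These 2 of 10 genes passed 0.5, as did 3.6% of all genes. Slc7a11 (0.37), Trib3 (0.34), Chac1 (0.29), Asns (0.27), Psat1 (0.24) and Phgdh (0.24) lay closely together. Ddit4 was at 0.18 and Slc3a2 at 0.05.

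All 10 genes also lay above the median of genes of like CDS length, by 0.01 (Slc3a2) to 0.67 (Sesn2). Under the other scalings and without the first CDS segment, 10 of 10 remained above 0. Without the last CDS segment the number was 9, with Slc3a2 at −0.047, and the median stayed between 0.24 and 0.32 under every alternative tried. The libraries were made from different dishes, and a difference between dishes and an effect of 2 min of cycloheximide cannot be told apart.

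In Harr against Chx the CDS ratio ranged from −0.75 (Ddit4) to 0.39 (Slc3a2), with a median of −0.14 against −0.05 over all genes, and 4 of 10 genes were above 0 (47.6% of all genes). The median was 0.17 against CDS reads of the same length class and −0.69, with 0 of 10 genes above 0, under scaling to the header totals. None of the 10 genes differed by 1 or more in either direction, where 4.63% of all genes were higher and 14.1% lower by that much. Ddit4 (−0.75), Phgdh (−0.71), Chac1 (−0.63), Slc7a5 (−0.56) and Sesn2 (−0.21) were low, and Asns (0.20) and Slc3a2 (0.39) high, each with an interval excluding 0. The values for Asns and Slc3a2 turned without the last CDS segment, to −0.047 and −0.0089, which left 2 genes above 0, Trib3 and Slc7a11. Chac1 was then at −1.29, past 1, and Ddit4 at −0.22. The ratio differed with CDS length. The median of genes with a CDS of 600 to 1200 nt was −0.54, and that of genes with 1200 to 2000 nt was −0.07. Against the median of its own length class, 5 of the 10 genes were higher and 5 lower. Trib3 stood 0.90 above, on 25 reads in Harr, and Psat1 0.47 above. Phgdh stood 0.65 below and Slc7a5 0.49 below.

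In Harr against WT, 7 of the 10 genes were above 0 (50.1% of all genes) and the median was 0.31 (0.00 over all genes). The direction depended on the processing, as the median was −0.20 with 2 genes above 0 under scaling to the header totals, and −0.041 with 4 genes above 0 without the last CDS segment. Relative to the length class, 8 of 10 were higher. Scaling to the header totals moved the median of all genes by −0.55 in Harr against Chx and by −0.51 in Harr against WT, so that directions that involve Harr hold only relative to the other CDS reads of the library.

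**Figure D4:**
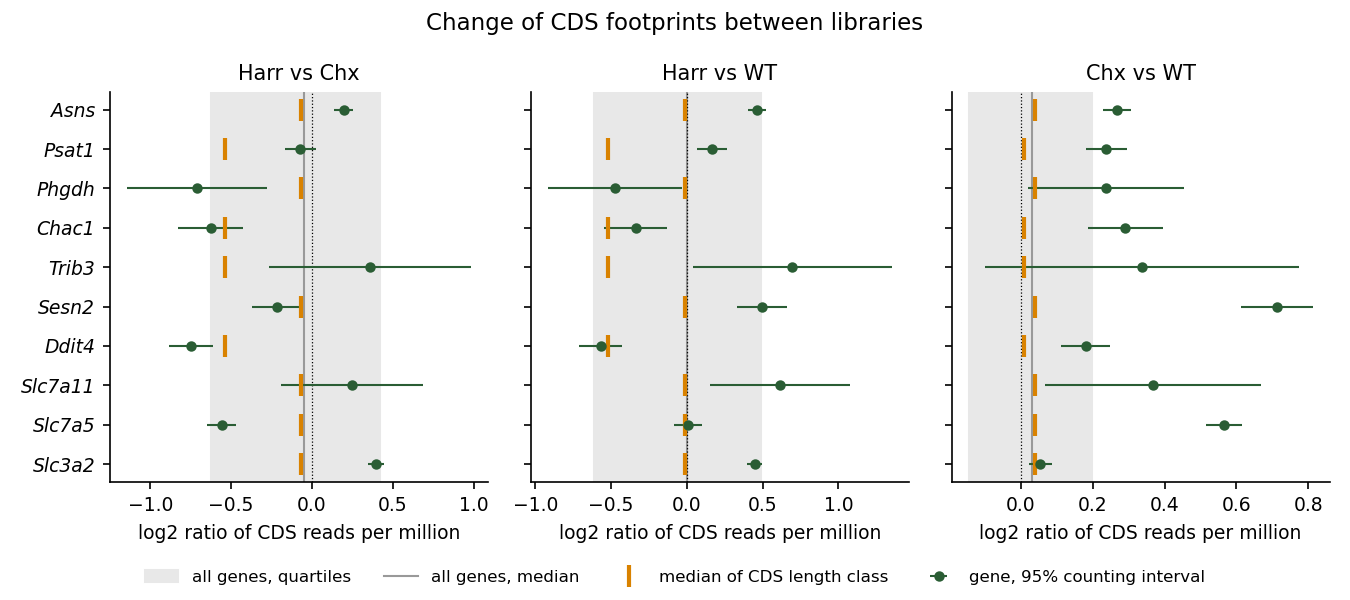
Log2 ratio of scaled CDS reads for each of the 10 genes in the 3 pairs of libraries (points, with 95% counting intervals), beside the median and quartiles of all genes and the median of genes in the same CDS length class (bars). The horizontal scales differ. All 10 points lie to the right of 0 in Chx vs WT, with Sesn2 and Slc7a5 farthest out.

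Along the CDS, the ratio of Harr to Chx followed a gradient. Pooled over the 10 genes, the Harr against Chx log2 ratio was 0.04 in the first 200 nt, was −1.09 between 200 and 400 nt, and was higher in each later window, with 1.25 between 1400 and 1700 nt. All genes with a CDS of 600 to 2000 nt went from −0.27 through −1.35 to 1.25. The low point of the 10 genes thus lay in the same window as that of all genes. The gradient was visible in single genes. In Asns, segment 2 of 11 had 1143 reads in WT, 1865 in Chx and 93 in Harr, a log2 ratio of −1.90 between Harr and Chx, whereas the last segment had 1292, 1271 and 736, a ratio of 1.63. In Sesn2 the last segment had 76, 78 and 60 reads and a ratio of 2.05.

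As a summary per gene, reads beyond the midpoint of the CDS were compared with those before it. In Harr against Chx this ratio was above 0 in 9 of 10 genes (70% of 10339 genes) and at least 1 in 7 (36.8%), with a median of 1.17 against 0.65. Phgdh (1.94, 0.71 to 3.17), Slc3a2 (1.47), Slc7a5 (1.42) and Asns (1.42) had the highest values. Ddit4 was the exception at −0.66 (−0.96 to −0.36). Its CDS of 690 nt has 2 segments only and is divided at 196 nt. Chac1, with a CDS of 672 nt, was at 1.15 (0.71 to 1.59). Whether the place of the division accounts for the Ddit4 value was not tested. The CDS of the 10 genes is 672 to 1698 nt long, and the summary over all genes spans all lengths.

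Among the 10 genes, the first CDS segment of Psat1 stood apart. It is 60 nt long and held 188 reads in WT, 272 in Chx and 223 in Harr, while the next segment of 61 nt held 255, 295 and 24. Its Harr against Chx ratio was 2.13, and those of segments 2 and 3 were −1.17 and −2.37. Taking later segments against the first instead of later against earlier parts gave a median of −0.056 for the 10 genes, against −0.287 over all genes. Psat1 was the lowest of the 10 at −2.47, at the 8.2 percentile of all genes. Of 7893 genes, 32% were lower by at least 1.

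The last CDS segment, with the stop codon, was lower in Chx than in WT relative to the earlier segments in 6 of the 9 genes with enough reads (72.7% of 8572 genes). The median was −0.35, against −0.33 over all genes. Slc7a5 was the lowest at −1.22 (−1.47 to −0.98), with 307 reads in WT and 244 in Chx while its earlier segments had 4660 and 8660. Sesn2 followed at −0.998. On the other side were Trib3 at 0.74 (−0.31 to 1.79), Slc3a2 at 0.23 (0.16 to 0.30) and Ddit4 at 0.01 (−0.14 to 0.17). This comparison was added after the segments had been seen.

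**Figure D5:**
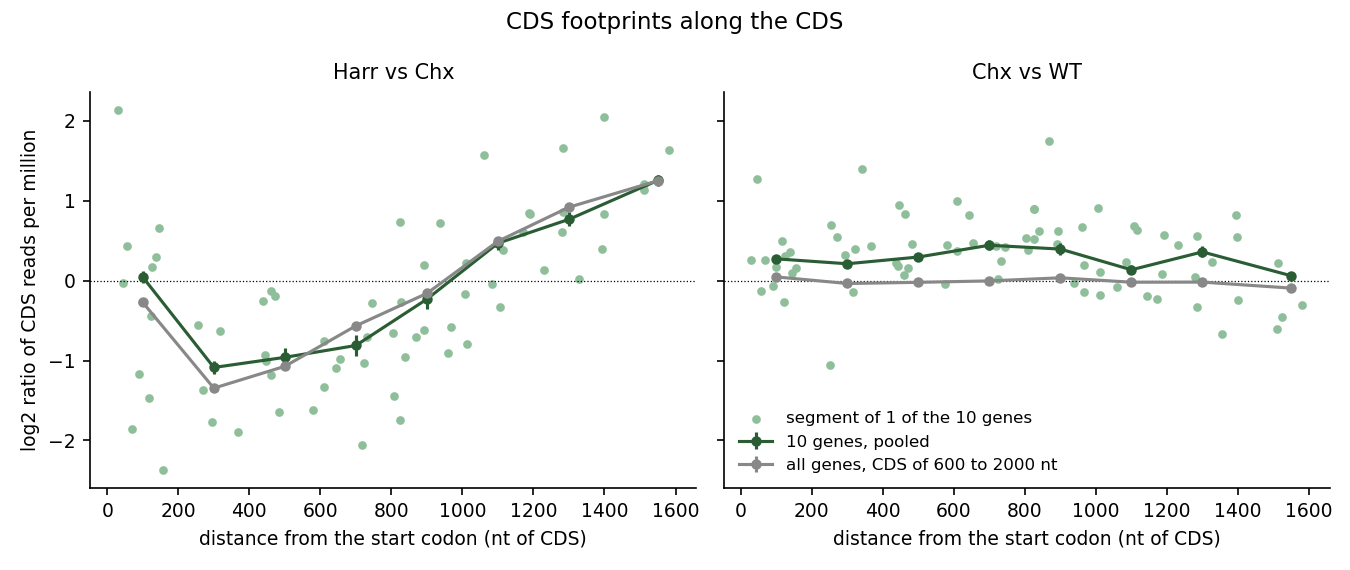
Log2 ratio of CDS reads per 1000000 between libraries against the distance from the start codon in nt of CDS, for Harr vs Chx (left) and Chx vs WT (right). Small points are CDS segments of the 10 genes with at least 20 reads in the pair, and lines are reads pooled over the 10 genes or over all genes with a CDS of 600 to 2000 nt, with 95% counting intervals. The Harr vs Chx lines dip between 200 and 400 nt and climb to 1.25, and the Chx vs WT line of the 10 genes stays above that of all genes.

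The 3′ UTR, where no translation is annotated, held few footprints of these genes, 220 in WT, 123 in Chx and 343 in Harr. Per nucleotide this was 0.482%, 0.187% and 2.73% of the CDS density, compared with 2.50%, 2.00% and 6.92% over all genes. The pooled value is weighted by length to Slc7a11, whose 3′ UTR of 7364 nt held 3, 0 and 2 reads. In Harr the single genes ranged from 0.820% (Slc7a11) to 25.6% (Phgdh, on 1 read), with Psat1 at 11.5% on 152 reads. The 3′ UTR:CDS ratio was higher by at least 1 on the log2 scale in Harr than in Chx in all 7 genes with enough reads (88.9% of 5216 genes). Psat1 had the highest value at 5.53 (4.83 to 6.24), with 40 reads in WT, 18 in Chx and 152 in Harr, and Sesn2 the lowest at 2.23 (1.27 to 3.20), with 44, 20 and 15. Between Chx and WT the ratio was lower by at least 1 in 6 of 7 genes (47.8% of 4591 genes). The exception was Ddit4 at 0.14 (−0.65 to 0.93). Relative to the CDS, the 7 genes were thus higher in Harr than in Chx in both UTRs.

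Other genes of the ATF4 pathway were taken from lists of 39 genes, all of which were found. The 5′ UTR:CDS ratio was at least 1 higher in Harr than in Chx in 36 of 37 with enough reads (92.1% of all genes), with a median of 2.49. In Chx against WT the CDS ratio was above 0 in 25 of 36 genes (54.8% of all genes) and at least 0.5 in 3 (3.6% of all genes), with a median of 0.19 against 0.03 over all genes. By list, it was above 0 in 8 of 9 further amino acid and one-carbon enzymes, 5 of 6 further amino acid transporters, 5 of 7 transcription factors, 3 of 5 secreted and stress targets and 4 of 9 sensors and regulators of eIF2α. The highest was the glutamine transporter Slc1a5 at 0.73 (SE 0.19) and the lowest Atf5 at −0.41 (SE 0.06).

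In Harr the growth factor gene Vegfa was the highest in the CDS of the 36 listed genes with enough reads. Its ratio was 1.24 (SE 0.11) against Chx and 1.71 (SE 0.12) against WT. The lowest were the kinase gene Eif2ak2 against Chx (−1.69, SE 0.79, on 3 reads in Harr) and Atf5 against WT (−1.75, SE 0.17).

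Atf4 itself had 3578 CDS reads in WT, 4323 in Chx and 656 in Harr, and 1901, 3321 and 1217 in the 5′ UTR. Its 5′ UTR thus held more reads than its CDS in Harr. Its CDS ratio in Chx against WT was −0.00 (SE 0.03), below that of all 10 target genes. In Harr against Chx its 5′ UTR:CDS ratio differed by 1.27 (SE 0.08), under the lowest of the 10 targets. Ddit3, which encodes CHOP, had 391, 558 and 129 CDS reads and 316, 392 and 316 in the 5′ UTR. Its 5′ UTR:CDS ratio had a log2 odds ratio of 1.80 (SE 0.18) in Harr against Chx and −0.20 (SE 0.14) in Chx against WT. Both mRNAs are known for inhibitory uORFs.

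The genes nearest to the median of the 10 targets, over the 5′ UTR:CDS and CDS log2 values of Harr against Chx and Chx against WT, were Map2k2, B3galnt1 and Las1l. Their Euclidean distances were 0.0859, 0.109 and 0.118, among 9886 genes. Of the targets, Psat1 was nearest at 0.238 and Phgdh farthest at 1.38.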

How the data were processed

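Ribosome footprints of primary cortical neurons were measured in 3 libraries, WT, Chx and Harr, grouped by the treatment label. The free-text descriptions name fractions of another experiment and were not used. The authors deposited 9 Plastid tables, 1 per library and region, with 1 line per exon segment of a transcript. The deposited counts are whole reads. The deposited coverage signal is counts per nucleotide, and the deposited RPKM is per kilobase and 1000000 reads. Per the file headers, reads of 25 to 100 nt on mm10 were counted at the 5′ end with offset 0, after removal of ribosomal reads and duplicates. A read counts in each overlapping transcript.

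Counts were used throughout. Of 142446 transcript identifiers 99.3% matched GENCODE M21. Segments were summed per region on the longest transcript per gene. Ratios carry a pseudocount of 0.5. Minimums were 10 reads per region in the pair, 100 CDS reads over the 3 libraries for CDS ratios, and 20 reads on each side of a division of the CDS. Libraries held 30219197 (WT), 35722483 (Chx) and 9754412 (Harr) reads, and Harr is the least precise. No test across treatments is possible with 1 library each. Intervals are 95% counting intervals (Wilson for shares, Poisson for RPKM), and cover counting error only, as PCR copies are not separate molecules. The ratio calculations were tested on simulated data. Alternatives changed the transcript, pseudocount, scaling, segments, minimums and genes included. The genes named were the 10 targets, Atf4 and Ddit3, the highest and lowest of the pathway lists by CDS ratio in each comparison, and the 3 nearest genes. The 10 genes and the lists were chosen with earlier results of these data known. Python 3.11.15, numpy 2.4.6, pandas 2.3.3 and scipy 1.17.1 were used.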

Additional observations from a re-analysis of the deposited data

Results flagged for a closer look

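Regions outside the longest transcripts, which were used only as an alternative, held more footprints relative to the CDS under harringtonine than in untreated neurons. The first exon of 146 nt of a shorter Asns transcript was higher in Harr than in WT by a log2 odds ratio of 4.16 against the Asns CDS. The 5′ UTR of 132 nt of the shorter Slc3a2 transcript was higher by 3.65. For whole 5′ UTRs of all genes the median of this comparison was 3.23, with quartiles of 2.36 and 4.11. The Slc3a2 value, also for a whole 5′ UTR, lay between the quartiles. The Asns value lay just above the upper quartile, but it is for an exon without the start segment and is therefore not a like comparison. Each value compares 1 library with 1 library.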

How the results depend on the processing

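No paired analysis was possible because each treatment has 1 library. The 5′ UTR:CDS medians stayed between 2.57 and 2.92 in Harr against Chx. With only 5′ UTR segments upstream of the start codon segment, where 1 gene (Ddit4) had enough reads, they were 4.95 in Harr against WT and 2.03 in Chx against WT. The most read transcript changed Asns and Slc3a2 only. It gave 5′ UTR shares of 4.89% (WT), 8.87% (Chx) and 37.7% (Harr), CDS shares of 94.6%, 90.9% and 60.3%, and a 3′ UTR share of 2.02% in Harr. Without Slc3a2, the gene with the most reads, 5′ UTR shares were 4.62%, 6.83% and 32.3%, CDS shares 94.7%, 92.9% and 64.4% and 3′ UTR shares 0.730%, 0.297% and 3.28%. Leaving out Phgdh, the gene with over 10% of the words of its transcript shared, changed no direction. No UTR of the 10 longest transcripts overlapped a CDS on the same strand.

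The CDS median of Harr against Chx (−0.14) was −0.69 with header totals, with 0 genes above 0, and 0.17 against CDS reads of the same length class. That of Harr against WT (0.31) was −0.20 with header totals, with 2 genes above 0, 0.55 against the length class and −0.041 without the last CDS segment. Header totals include UTR reads, which take a larger share in Harr. Without the last CDS segment 2 genes were above 0 in Harr against Chx and 4 in Harr against WT. Under it Asns (−0.047) and Slc3a2 (−0.0089) turned in Harr against Chx, Psat1 (−0.10), Slc7a5 (−0.026) and Slc3a2 (−0.056) in Harr against WT and Slc3a2 (−0.047) in Chx against WT. Later segments against the first gave −0.056 in Harr against Chx and −0.047 in Harr against WT, where all genes had −0.287 and −0.564. The last segment against earlier ones gave −0.35 in Chx against WT, with −0.33 over all genes. The alternatives without the last segment and with the last against earlier segments were chosen after seeing the data. Low counts limit Phgdh, Trib3 and Slc7a11, above all in Harr.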
